A study of Mus musculus with 20 samples.

Results

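The libraries taken around dusk, at ZT7 and ZT13, were compared with those taken around dawn, at ZT19 and ZT1. ZT, the zeitgeber time, counts the hours from the onset of light. All 20 libraries of the series entered, 10 on each side, chosen by their time-point labels alone, with 5 replicates per time point. Every group was dermal lymphatic endothelial cells (LECs) sorted from the ear skin of wild-type C57BL/6 mice at postnatal day 56, and by their labels the groups differed only in the time of harvest. No genotype or treatment was compared. Per the study's methods, each replicate pooled ears of more than 1 mouse, so n counts pools and p-values measure the spread between them, and LECs were taken as CD31+podoplanin+ cells. Each time point weighed the same within its side, and the question was which transcripts separate the hours around dusk from those around dawn.

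The mammalian clock is a transcriptional loop in which BMAL1, encoded by Arntl, and CLOCK bind E-box elements and drive the genes of their own repressors, the period and cryptochrome proteins. The same pair drives Nr1d1 and Nr1d2, whose REV-ERB products repress Arntl through ROR elements, and the PAR bZIP factors Dbp, Tef and Hlf, which bind D-boxes and compete with the repressor NFIL3. Arntl and the E-box genes therefore peak in opposite parts of the day in most mouse tissues, with the E-box genes high from the day into the evening and Arntl high from the night into the morning. LECs line the lymphatic vessels through which dendritic cells leave the skin.

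Reads counted on genes ranged from 4475111 to 42002363 around dusk and from 5902909 to 36022409 around dawn. The share of reads on genes ran from 12.7% to 79.9% around dusk, with a median of 21.5%, and from 20.2% to 81.6% around dawn, with a median of 32.3%. This share is among reads on a gene or on none, and its mean log2 odds differed by -0.69 between dusk and dawn, within the spread of the libraries (two-sided permutation test of 10 against 10, p = 0.309, adjusted p = 0.330 over 2 measures). That test pooled the time points of each side, so it cannot show whether the share was even between them. Within dawn the median share was 64.0% for the ZT19 libraries but 24.8% for those of ZT1. Within dusk it was 22.9% for ZT13 and 17.5% for ZT7. Libraries with over 50% of reads on genes were ZT7 replicate 2, ZT13 replicate 5 and ZT19 replicates 1, 2, 3 and 5. The LEC label held against its markers, with Prox1 between 1276 and 4490.0 normalized counts (counts scaled to a common library size) and Lyve1 between 6393 and 29894 over all 20 libraries. Keratinocyte transcripts were abundant too, with Krt14 between 2936 and 56683 around dusk and between 10695 and 72834 around dawn. Of the other defining markers, Ptprc of leukocytes was at 0 in 3 libraries, and Cd3e of T cells in 6. In such sorted bulk RNA, fewer cells of a type and less RNA per cell cannot be told apart.

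Between the sides, 11 of 19209 genes tested passed an adjusted p of 0.05 (0.0573%) in edgeR's quasi-likelihood test. Higher around dusk were Dbp and Fam131b (2 genes, 0.0104%). Higher around dawn were Aldh3a1, Ccdc80, Krt79, Enpp2, Sostdc1, Top2a, Ccnb1, Tuba1c and Col6a1 (9 genes, 0.0469%). Each of the 11 genes had both dusk means on the same side of both dawn means, as had 7393 of all genes tested. At an unadjusted p under 0.05, 1604 genes (8.35%) were higher around dusk and 1137 (5.92%) around dawn, and the median log2 fold change of all genes tested was 0.07. Other scalings moved this median to 0.22 (RLE), 0.28 (upper quartile) and 0.29 (total counts), and it was -0.20 when the log2 odds of reads on genes were a covariate and -0.01 without the ZT19 libraries. With these scalings the calls split into 2 higher around dusk and 2 around dawn with RLE, 2 and 1 with the upper quartile, and 2 and 2 with total counts. Of the dawn genes, Aldh3a1 was called in all 3, with Krt79 under RLE and Sostdc1 under total counts, and the other dawn calls were lost there. With DESeq2 606 genes passed, 489 of them higher around dusk, and with limma-voom with sample quality weights 362 passed, 124 of them higher around dusk. Just inside the threshold lay Tuba1c and Col6a1 (adjusted p = 0.0410 by edgeR), and just outside lay Tmem97 and Cdc20 (0.0518).

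**Figure D1:**
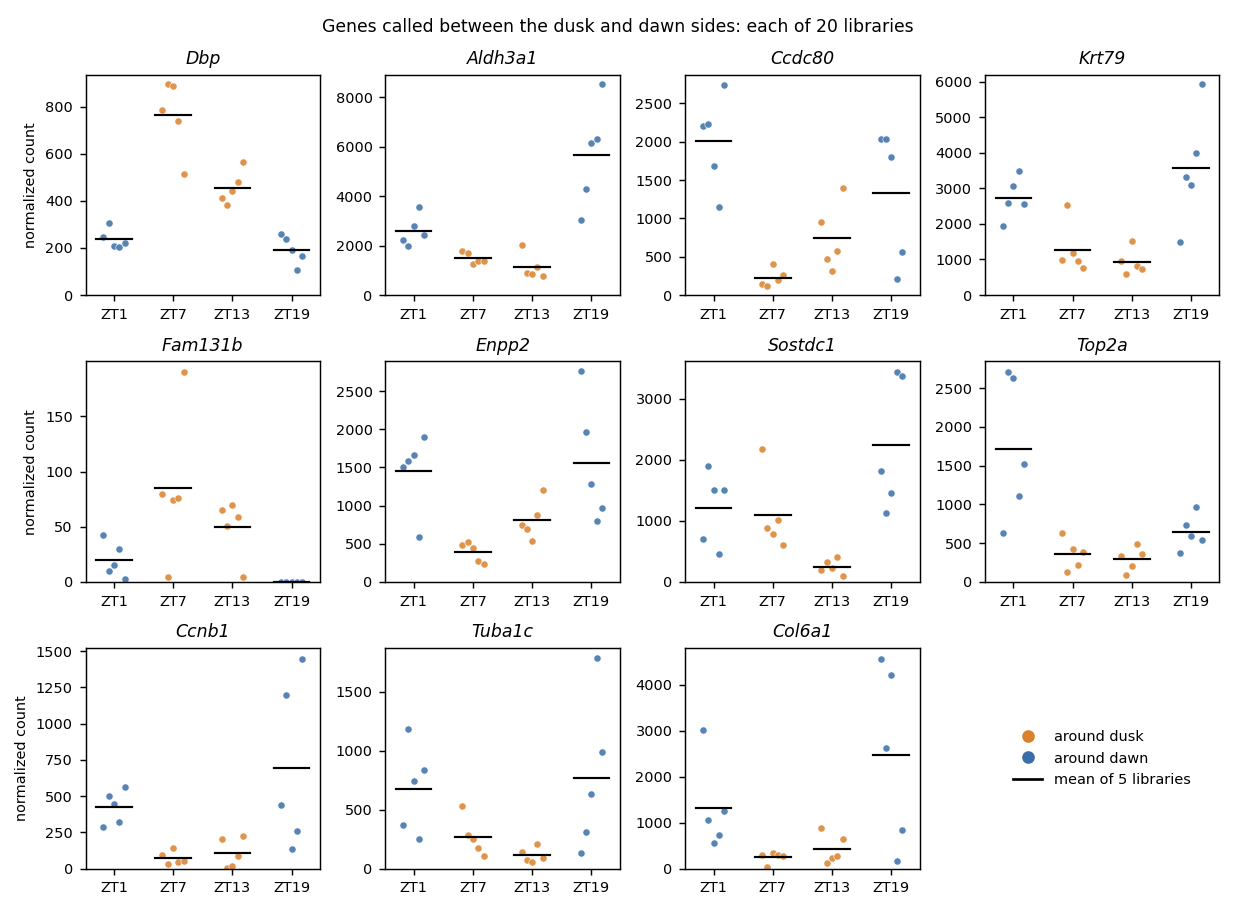
Normalized counts (y axis, linear from 0) of the 11 genes called between the sides, by time point (x axis), with 1 point per library and a line at the mean of 5 libraries. Dbp is the one panel in which every dusk library lies above every dawn library, and Fam131b has no count in any ZT19 library.

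Dbp, the D-box-binding output factor of the clock, lies on chromosome 7 from 45705088 to 45710203 (plus strand, GRCm38). Its normalized counts were 787, 898, 891, 738 and 516 in the ZT7 libraries and 411, 385, 440.3, 482 and 565 in those of ZT13. At ZT19 they were 258, 238, 193, 107 and 164, and at ZT1 they were 246, 305, 211, 203 and 220.3. The lowest dusk library thus lay above the highest dawn library. The log2 fold change was 1.47 (standard error 0.22, adjusted p = 0.00581 by edgeR). Fitted log2 differences were 1.99 for ZT7 against ZT19 and 0.95 for ZT13 against ZT1, and these 12-h pairs differed by 1.05 (standard error 0.44, adjusted p = 0.312 by edgeR). No overlap between the 10 dusk and 10 dawn libraries was found for 2 genes (0.0104%), Dbp above and Ldhb below. Ldhb, a subunit of lactate dehydrogenase, had 250.2 to 1338 normalized counts around dusk and 1552 to 5627 around dawn, and its log2 fold change of -1.31 missed the threshold (standard error 0.27, adjusted p = 0.0541 by edgeR). It was named after its values were seen. With total counts in place of TMM, 1 gene did not overlap.

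Of 31 clock genes tested, Dbp alone was called, and at an unadjusted p under 0.05 there were 6 higher around dusk (19.4%) and 1 around dawn (3.23%), against 8.35% and 5.92% of all genes. Their median log2 fold change was 0.29, against 0.07 over all genes. Among the activators, Arntl had a lowest, median and highest normalized count of 12.7, 168 and 405 around dusk and of 181, 367 and 596 around dawn. Its ranges overlapped, and ZT7 replicate 2, with 405, was the highest dusk library. It differed by -1.24 on the log2 scale, with a standard error of 0.37 and an adjusted p of 0.166 by edgeR. The values of the other 3 activators ran from -0.16 to 0.60, all with unadjusted p over 0.05.

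Of the period repressors, Per1 differed by 0.88 on the log2 scale (standard error 0.29, adjusted p = 0.177 by edgeR) and Per3 by 0.67 (standard error 0.21, adjusted p = 0.166). Per3 ran from 934 to 2661 normalized counts around dusk and from 684 to 1517 around dawn. Per2 differed by 0.52 (standard error 0.36), with 479.9 normalized counts on average at ZT13 and 249 at ZT7, and Cry1 by -0.60 (standard error 0.32), with its highest mean, 768, at ZT19. Of the nuclear receptors, Nr1d2 differed by 0.80 (standard error 0.23, adjusted p = 0.161 by edgeR), from 711 to 1731 normalized counts around dusk and from 426 to 1099 around dawn. Nr1d1, which shares its function, differed by 0.35 (standard error 0.24) and Rora, the activator that competes for the same element, by -0.56 (standard error 0.29). Ciart, a repressor of the BMAL1 and CLOCK pair, differed by 1.09 (standard error 0.39, adjusted p = 0.199 by edgeR). The remaining ROR and DEC factors ran from -0.42 to 0.63.

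The PAR bZIP list had the highest median of the 5 clock lists, 0.55. Beside Dbp, Hlf differed by 0.64 (standard error 0.30, adjusted p = 0.330 by edgeR) and Tef by 0.46 (standard error 0.22, adjusted p = 0.353), while Nfil3, their competitor, differed by -0.48 (standard error 0.30, adjusted p = 0.482). Their time-point means ran differently within the dusk side. Hlf was at 679 normalized counts at ZT7 and 299.97 at ZT13, and Nfil3 at 203 and 542. The 12-h pairs of Hlf differed by 1.94 (standard error 0.60, adjusted p = 0.261 by edgeR). Kinases, ligases and proteases of the clock proteins had a median of 0.02. None of the 10 had an unadjusted p under 0.05, where 8.35% of all genes were higher around dusk and 5.92% around dawn.

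**Figure D2:**
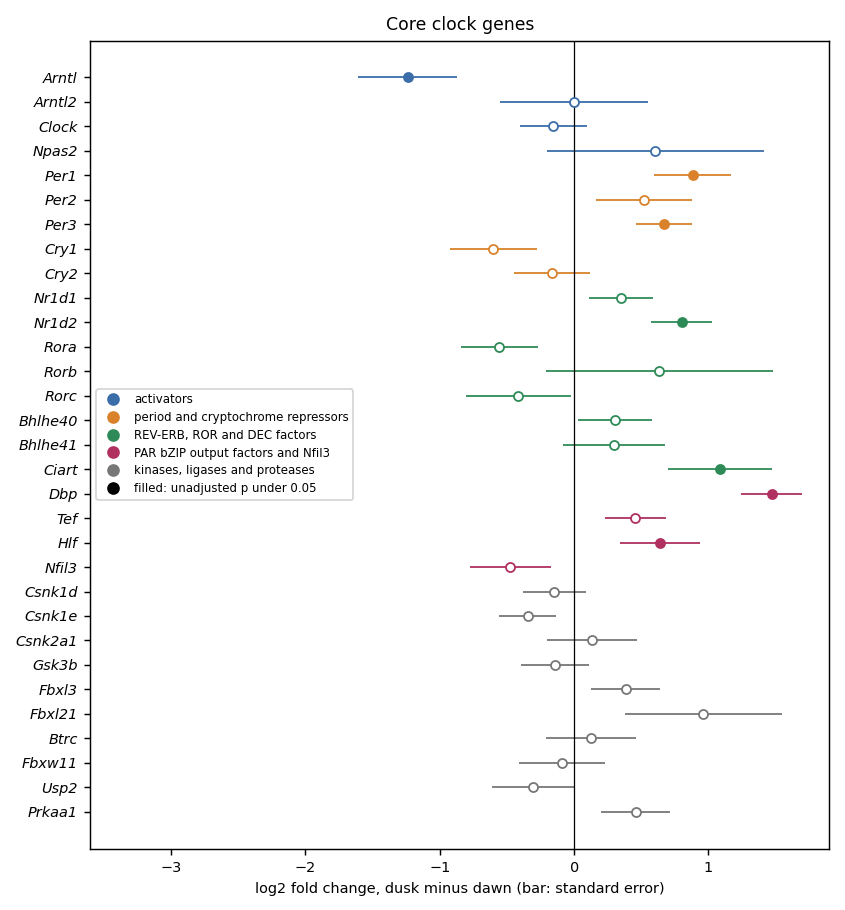
Log2 fold change of dusk against dawn (x axis) with its standard error for the 31 clock genes tested (y axis), colored by list, filled where the unadjusted p was under 0.05. Dbp lies farthest right at 1.47 and Arntl farthest left at -1.24.

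Promoters were read for these genes because their products bind named elements. The sequences are the 250 bases before the start in RefSeq (GRCm38.p6), with matches to the E-box CACGTG, the D-box TTANNTAA or the ROR and REV-ERB element ANTNGGTCA on either strand in capitals. Ciart (chr3:95882229-95882478, minus strand) holds 3 E-boxes, Per1 (chr11:69098699-69098948, plus strand) 1 E-box, and Per3 (chr4:151044666-151044915, minus strand) 2 D-boxes. Dbp (chr7:45704997-45705246, plus strand), the called clock gene, has no match to these letters in this window.
Ciart: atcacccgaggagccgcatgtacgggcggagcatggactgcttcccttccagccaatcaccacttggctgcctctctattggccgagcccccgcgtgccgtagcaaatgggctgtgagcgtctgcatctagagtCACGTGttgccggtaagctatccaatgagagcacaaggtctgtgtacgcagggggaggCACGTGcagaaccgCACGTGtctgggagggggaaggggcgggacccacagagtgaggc
Per1: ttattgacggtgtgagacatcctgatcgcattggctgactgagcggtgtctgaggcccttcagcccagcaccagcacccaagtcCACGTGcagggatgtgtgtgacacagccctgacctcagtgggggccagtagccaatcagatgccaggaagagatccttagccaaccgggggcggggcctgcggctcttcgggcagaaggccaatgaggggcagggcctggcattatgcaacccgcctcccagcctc
Per3: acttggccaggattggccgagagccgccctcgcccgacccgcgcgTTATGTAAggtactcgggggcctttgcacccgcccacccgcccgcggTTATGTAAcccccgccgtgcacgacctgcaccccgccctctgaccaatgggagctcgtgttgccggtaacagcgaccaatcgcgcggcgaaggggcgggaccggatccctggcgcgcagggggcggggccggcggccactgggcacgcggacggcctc
Dbp: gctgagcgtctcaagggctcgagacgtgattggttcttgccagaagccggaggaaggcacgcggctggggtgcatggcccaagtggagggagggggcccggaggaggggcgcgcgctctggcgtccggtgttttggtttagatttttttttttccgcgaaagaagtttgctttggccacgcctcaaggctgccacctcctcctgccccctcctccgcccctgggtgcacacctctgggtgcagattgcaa

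Over 300 bases, with 50 after the start, an E-box was found in 6 of 34 promoters of clock genes (17.6%), against 7.15% of all 32851 promoters. A D-box was found in 3 (8.82%, against 6.00%) and a ROR and REV-ERB element in 2 (5.88%, against 2.24%), namely those of Arntl and Nfil3. Promoters were found for 25 of the 31 clock genes. Of the 11 called genes 7 had a promoter in the table, and none of these held an E-box. Among them, a D-box was found for Top2a alone.

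Genes of the cell cycle formed the list that lay farthest to the dawn side among the pathway lists. Top2a, the topoisomerase that untangles replicated DNA, and Ccnb1, the cyclin of mitotic entry, were called, and 22 of 34 genes (64.7%) were higher around dawn at an unadjusted p under 0.05, with none higher around dusk, against 5.92% and 8.35% of all genes. The median log2 fold change was -0.95, against 0.07 over all genes. Of 20 genes of chromosome segregation and mitosis 15 were higher around dawn at that p, with a median of -1.12, and of 10 replication genes 7, with a median of -0.59. These counts describe the list and are no test of it.

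Top2a (chromosome 11, 98992943 to 99024189) had a lowest, median and highest normalized count of 95.4, 349.7 and 632 around dusk and of 369.8, 855 and 2716 around dawn. Its log2 fold change was -1.69 (standard error 0.32, adjusted p = 0.0363 by edgeR), and its highest values, 2716 and 2633, were both at ZT1. Ccnb1 (chromosome 13, 100778650 to 100786570) had 5.30, 69.4 and 228 around dusk and 138, 444 and 1447 around dawn, and differed by -2.60 on the log2 scale (standard error 0.51, adjusted p = 0.0410 by edgeR). The ranges of both genes overlapped between the sides. Both calls were lost with RLE, upper-quartile and total-count scaling and with the replicate block, with adjusted p by edgeR from 0.0916 to 0.139 and log2 fold changes from -1.73 to -1.45 for Top2a and from -2.62 to -2.35 for Ccnb1. Tuba1c, an alpha-tubulin of the spindle and cytoskeleton that was on no list, differed by -2.04 (standard error 0.40, adjusted p = 0.0410 by edgeR). Its near-identical relatives Tuba1a and Tuba1b can share reads with it, so its count is uncertain.

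The mean level of the list in a library, as log2(normalized count + 1), ran from 6.41 to 8.01 around dusk and from 8.09 to 9.04 around dawn, without overlap. With RLE or upper-quartile scaling 2 dusk libraries lay above the lowest dawn library, and with total counts 4 did. The median of the list stayed below 0 in each of the 39 other settings, from -1.13 to -0.71. Markers of keratinocytes, a dividing cell type of the skin, were beside it at 10.4 at ZT7 and 10.4 at ZT19, where the cell cycle list was at 7.39 and 8.46, and at 8.19 at ZT13 and 9.67 at ZT1, where it was at 7.31 and 8.41. With keratinocyte and fibroblast scores as covariates the median was -0.92, and 18 of the 34 genes had an unadjusted p under 0.05, all higher around dawn, where 1072 of all genes tested were higher around dawn at that p. In that fit 1 cell cycle gene was called, Ccnb1 (log2 fold change -2.87, adjusted p = 0.0495 by edgeR). Which cells in the sort carried these transcripts was not tested.

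**Figure D3:**
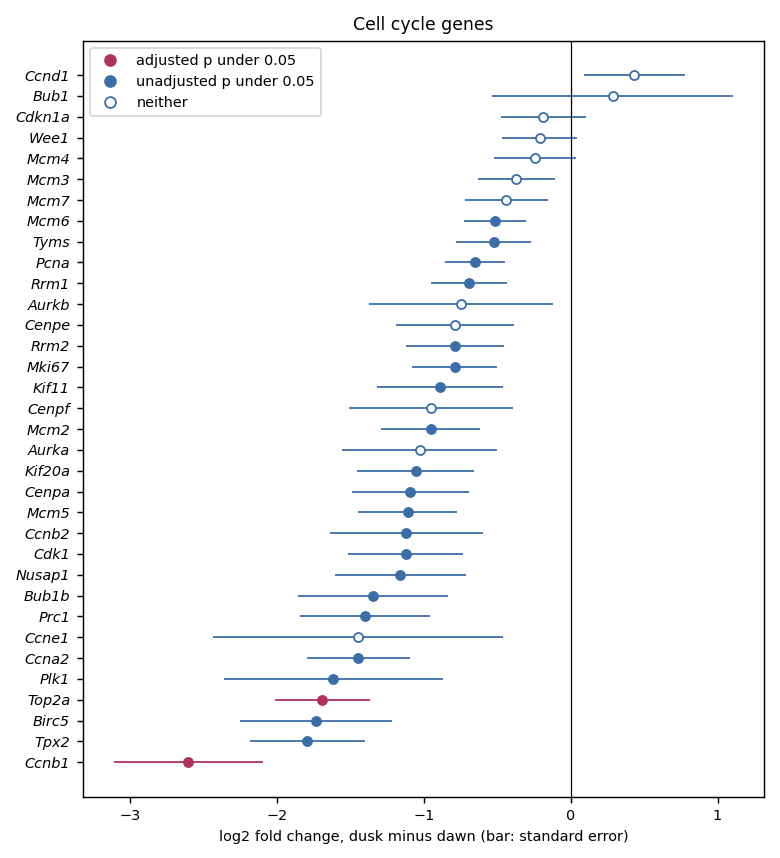
Log2 fold change of dusk against dawn (x axis) with its standard error for the 34 cell cycle genes (y axis), red where the adjusted p was under 0.05 and filled blue where the unadjusted p was. Of the 34 genes 32 lie below 0, and Ccnb1 lies lowest at -2.60.

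Aldh3a1, an aldehyde dehydrogenase that clears aldehydes formed by lipid peroxidation, passed beside Dbp at the smallest adjusted p. It lies on chromosome 11 from 61207537 to 61218421. Its normalized counts were 1763.5, 1713, 1259, 1358 and 1380.1 at ZT7 and 2034, 877, 839, 1137 and 754 at ZT13. At ZT19 they were 3020.3, 4289, 6135, 6301 and 8529, and at ZT1 they were 2238, 1999.65, 2810.5, 3558 and 2416. The ZT19 libraries held the highest values and overlapped those of ZT1, and 1 ZT13 library, with 2034, lay above 1 ZT1 library, with 1999.65. The log2 fold change was -1.56 (standard error 0.24, adjusted p = 0.00581 by edgeR). Both Aldh3a1 and Dbp were called in each of the 20 fits that left out 1 library.

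The list of aldehyde and redox detoxification genes had a median of -0.58, with 12 of 27 genes (44.4%) higher around dawn at an unadjusted p under 0.05 and none around dusk, against 5.92% and 8.35% of all genes. Lipid and fuel metabolism genes had a median of -0.26, with 10 of 28 higher around dawn (35.7%) and 1 around dusk (3.57%), against the same shares. Scd1, which desaturates fatty acids, had 10614 normalized counts at ZT1 and 10816 at ZT19 against 5243 at ZT7 and 6077 at ZT13 (log2 fold change -0.92, standard error 0.28, adjusted p = 0.166 by edgeR). Ldha, the other lactate dehydrogenase subunit, differed by -0.80 (standard error 0.25, adjusted p = 0.167 by edgeR). Its mean was 6193 normalized counts at ZT19 but 2514 at ZT1, against 2840 at ZT7 and 1815 at ZT13. None of the lipid and fuel genes was called.

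Of the matrix genes, Ccdc80 and Col6a1, a secreted matrix protein and a chain of collagen VI, were called higher around dawn, and 10 of the 20 collagen and matrix genes (50%) were higher around dawn at an unadjusted p under 0.05 and none around dusk, against 5.92% and 8.35% of all genes, with a median of -0.66. Ccdc80 had a lowest, median and highest normalized count of 117, 356 and 1395 around dusk and of 213, 1917 and 2744 around dawn. Its log2 fold change was -2.00 (standard error 0.35, adjusted p = 0.0256 by edgeR), and the low dawn values, 213 and 559, were ZT19 replicates 4 and 5. Col6a1 had 28.0, 292 and 883 around dusk and 166, 1157 and 4568 around dawn, and differed by -2.46 (standard error 0.48, adjusted p = 0.0410 by edgeR). Without the 6 libraries with over 50% of reads on genes, which leaves ZT19 replicate 4 as its time point's only library, the median of the matrix list was 0.13, and Col6a1 differed by -0.51 (adjusted p = 0.593 by edgeR) and Ccdc80 by -0.83 (0.472).

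These genes are also transcribed by fibroblasts. Of 15 fibroblast markers tested none was called, 2 were higher around dusk and 2 around dawn at an unadjusted p under 0.05 (13.3% each, against 8.35% and 5.92% of all genes), and the median of the fibroblast markers was -0.15. It was above 0 in 9 of the 39 other settings, the RLE, upper-quartile and total-count scalings among them, and reached 0.77 without the 6 libraries with over 50% of reads on genes. Dcn, a proteoglycan of fibroblasts, differed by -1.59 (standard error 0.45, adjusted p = 0.161 by edgeR) and Gsn by -1.30 (standard error 0.42, adjusted p = 0.172). They were named as the 2 with the smallest p, and both were higher around dawn. Of the 15 markers 6 lay above 0 and 9 below, from -1.59 to 2.58. The mean level of the list overlapped between the sides, from 3.17 to 6.86 around dusk and from 3.38 to 7.37 around dawn, and Pdgfra was at 0 in 1 library. With both scores as covariates Ccdc80 differed by -2.49 (adjusted p = 0.00338 by edgeR) and Col6a1 by -3.00 (0.0389).

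**Figure D4:**
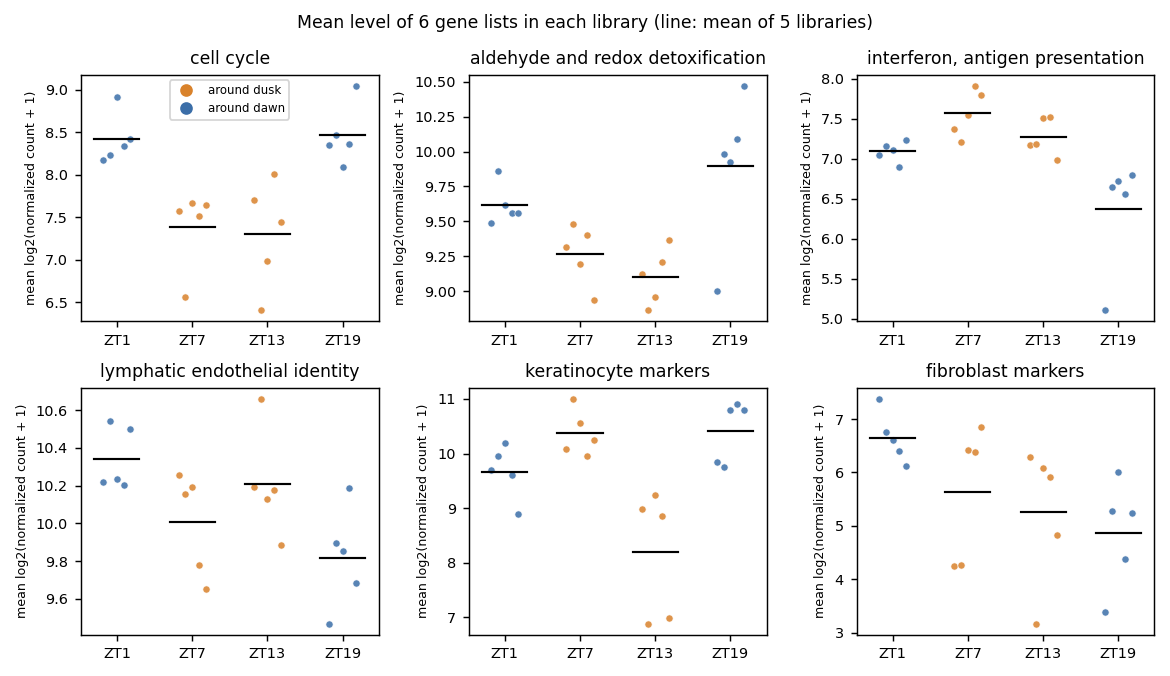
Mean log2(normalized count + 1) over the genes of 6 lists (y axis, own range per panel) in each library by time point (x axis), with a line at the mean of 5 libraries. The cell cycle list is without overlap between the sides, from 6.41 to 8.01 around dusk and from 8.09 to 9.04 around dawn, while the ranges of LEC identity overlap.

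Krt79, a keratin of the hair follicle funnel and sebaceous duct, was called and higher around dawn. It had a lowest, median and highest normalized count of 587, 956 and 2535 around dusk and of 1496, 3082 and 5931 around dawn (log2 fold change -1.52, standard error 0.27, adjusted p = 0.0256 by edgeR). It belongs to the keratinocyte markers, of which 10 of 20 were higher around dawn at an unadjusted p under 0.05 (50%, against 5.92% of all genes) and none around dusk (against 8.35%), with a median of -0.77. Within the sides that list had a median of -1.97 for ZT13 against ZT7 and of -1.03 for ZT1 against ZT19. Without the ZT13 libraries its median was 0.14, so its direction rests on them. Sostdc1, a secreted inhibitor of BMP and Wnt signaling, had 94.4, 507 and 2186 around dusk and 464, 1504 and 3448 around dawn (log2 fold change -1.67, standard error 0.32, adjusted p = 0.0363 by edgeR), and -1.36 with covariates for the keratinocyte and fibroblast scores (adjusted p = 0.0862). Its ZT7 mean, 1095, was close to its ZT1 mean, 1214, and its ZT13 mean was 247.

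Enpp2 encodes autotaxin, the enzyme that makes lysophosphatidic acid, a lipid signal for cell migration, and was the one called gene of the list of molecules for dendritic cell trafficking. It had 241, 525 and 1208 normalized counts around dusk and 594, 1547 and 2764 around dawn. The log2 fold change was -1.41 (standard error 0.26, adjusted p = 0.0356 by edgeR), and -1.57 (0.0389) with the scores as covariates. The call was lost with RLE (-1.30, adjusted p = 0.0570 by edgeR), upper-quartile (-1.23, 0.0845) and total-count scaling (-1.24, 0.117) and with the replicate block (-1.33, 0.119). The low dawn libraries were ZT1 replicate 4, with 594, and ZT19 replicates 4 and 5, with 797 and 968, and the highest dusk library was ZT13 replicate 5. Of 31 genes of that list tested 2 were higher around dawn at an unadjusted p under 0.05 (6.45%) and none around dusk, against 5.92% and 8.35% of all genes. The second, Lpar1, a receptor for the same lipid that was named after its values were seen, differed by -1.70 (standard error 0.59, adjusted p = 0.193 by edgeR).

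Fam131b, on chromosome 6 from 42315312 to 42324643, was the other gene called higher around dusk, at a low level. It had a lowest, median and highest normalized count of 4.57, 67.2 and 190 around dusk and of 0, 1.2 and 42.5 around dawn. All 5 ZT19 libraries were at 0. Against the level that 3 counts over those 5 libraries would give, it was at least 314-fold higher at ZT7 and at least 184-fold higher at ZT13. These bounds cover counting error alone. Genes with a count numbered 12477 to 18768 in the ZT19 libraries and 19055 to 21525 at ZT1. Of all genes tested, 587 had a time point all at 0. Against ZT1 the Fam131b means were 4.27-fold and 2.5-fold higher. Its adjusted p was 0.0315 by edgeR, and its fitted fold change depends on the prior count. The 2 low dusk libraries, with 4.57 and 4.75, were ZT7 replicate 2 and ZT13 replicate 5, both with over 50% of reads on genes, as were 4 of the 5 ZT19 libraries. With that share as a covariate its adjusted p was 0.0423 by edgeR, without both dusk libraries with over 50% it was 0.0100, and without all 6 such libraries 0.253. It was 0.0606 with libraries thinned to the smallest and 0.139 with the replicate block.

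LEC and endothelial genes gave no call. Of 15 LEC identity genes and of 15 pan-endothelial genes tested none had an unadjusted p under 0.05, with medians of 0.01 and 0.03. Of all genes, 8.35% were higher around dusk at that p and 5.92% around dawn. The mean level of the LEC list ran from 9.65 to 10.7 around dusk and from 9.47 to 10.5 around dawn. Maf, a transcription factor of lymphatic valves, differed by 0.58 (standard error 0.34), Fgl2 by 0.44 (standard error 0.27), Tek by 0.31 (standard error 0.22) and Esam by -0.42 (standard error 0.31). Ccl21a, Ccl21b and Ccl21c, genes for the chemokine that guides dendritic cells to lymphatics, were at 0 counts in all 20 libraries. These near-identical genes share reads, and reads placed at more than 1 site stood apart from the gene counts. The 28 genes of VEGF, angiopoietin and Notch signaling had a median of -0.16, below 0 in each of the 39 other settings, with 18 genes below 0. At an unadjusted p under 0.05, 2 of them (7.14%, against 8.35% of all genes) were higher around dusk and none around dawn, namely Vegfc, at 0 in all ZT19 libraries, and Id3 (log2 fold change 0.58, standard error 0.26, adjusted p = 0.299 by edgeR). The 12 blood endothelial markers had a median of 0.10, with 1 gene higher on each side at that p (8.33% each, against 8.35% and 5.92% of all genes). The marker higher around dawn was Rgcc (-0.89, standard error 0.26, adjusted p = 0.161 by edgeR). Its mean was 2812 normalized counts at ZT19 but 904 at ZT1, against 911 at ZT7 and 807 at ZT13. The marker higher around dusk was Aplnr (2.79, standard error 1.34, adjusted p = 0.346 by edgeR), at 0 in 8 libraries.

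Genes that respond to glucocorticoids, the adrenal hormones that peak before the active phase, gave no call. Of them, 6 of 22 (27.3%) were higher around dusk at an unadjusted p under 0.05 and none around dawn, against 8.35% and 5.92% of all genes, with a median of 0.19. Ddit4, an inhibitor of mTOR, had 1499 normalized counts at ZT7 and 2332 at ZT13 against 618 at ZT19 and 778 at ZT1 (log2 fold change 1.43, standard error 0.33, adjusted p = 0.112 by edgeR). Cebpd differed by 0.90 (standard error 0.22, adjusted p = 0.129 by edgeR). Its means were 1351 normalized counts at ZT7 and 2748 at ZT13, against 1415 at ZT19 and 755 at ZT1. Within the sides the glucocorticoid list had a median of 0.83 for ZT13 against ZT7 and of -0.81 for ZT1 against ZT19. The median of this list was -0.15 without the ZT1 libraries and -0.19 without those of ZT13. Genes of interferon response and antigen presentation had a median of 0.68, with 6 of 29 (20.7%) higher around dusk and none around dawn at that p, against the same shares. Bst2 among them differed by 0.63 (standard error 0.25, adjusted p = 0.246 by edgeR). Oas1a was at 0 in 7 libraries, all those of ZT19 among them, with means of 25.2 around dusk and 3.64 around dawn. The leukocyte list had a median of 0.95, 13 of 16 genes above 0, and a mean level from 1.23 to 5.60 around dusk and from 0.56 to 4.91 around dawn, and its part in the interferon values was not tested. It was lowest in the libraries with the highest shares of reads on genes, with 0.56 in ZT19 replicate 1 and 1.23 in ZT13 replicate 5, and its median was -0.04 with that share as a covariate, where the interferon median was 0.43.

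Heat shock chaperones had a median of -0.41, with 5 of 14 (35.7%) higher around dawn and none around dusk at an unadjusted p under 0.05, against 5.92% and 8.35% of all genes. Hspd1, the mitochondrial chaperonin, differed by -0.77 (standard error 0.22, adjusted p = 0.161 by edgeR) and Hspa8 by -0.63 (standard error 0.26, adjusted p = 0.275). This median was below 0 in each of the 39 other settings. The cold-inducible genes Rbm3 and Cirbp differed by -0.46 (standard error 0.24) and -0.40 (standard error 0.24), with their highest means, 2981 and 3326, at ZT19. Immediate early genes, which answer cell isolation within minutes, had a median of 0.08, with Fosb at 0.68 (standard error 0.28) and Ier2 at -0.63 (standard error 0.28). Among the markers of other skin cells, Krt79 alone was called. At an unadjusted p under 0.05, 8.35% of all genes were higher around dusk and 5.92% around dawn. Of 16 leukocyte markers 2 were higher around dusk (12.5%) and none around dawn, with Itgax at 2.61 (standard error 1.18). Of 10 pericyte and smooth muscle markers 2 were higher around dusk (20%), Abcc9 at 1.54 (standard error 0.72) among them, and 1 around dawn (10%), Cspg4 at -0.80 (standard error 0.38), with a median of 0.79. Of 11 Schwann cell and melanocyte markers, with a median of 0.23 and 8 genes above 0, Tyr was higher around dusk (9.09%), at 0 in all ZT19 libraries and with side means of 28.5 and 4.92 normalized counts, and S100b around dawn (9.09%, log2 fold change -1.81, standard error 0.57). Of 9 adipocyte and chondrocyte markers, with a median of -0.80, 3 were higher around dawn (33.3%), Sox9 (-0.98, standard error 0.23) and Acan (-1.55, standard error 0.55) among them, and 1 around dusk (11.1%), Plin1 (3.23, standard error 1.30), which was picked with its values known. The 9 skeletal muscle markers had a median of 0.43 and none at that p, and Ckm among them was at 0 in 8 libraries. Adjusted p by edgeR for these uncalled markers ran from 0.120 to 0.353. When the share of reads on genes was a covariate, the medians of the leukocyte markers (-0.04), pericyte and smooth muscle markers (-0.42), Schwann cell and melanocyte markers (-0.51) and skeletal muscle markers (-0.93) were below 0. The median of the adipocyte and chondrocyte markers was 0.77 with limma-voom and 0.96 without the 6 libraries with over 50% of reads on genes.

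Time points of 1 side were compared in the same way. Between ZT13 and ZT7, 18 genes (0.0937%) passed by edgeR, 15 of them lower at ZT13, and between ZT1 and ZT19, 3 genes (0.0156%), Krt15, Slc10a6 and Lad1, all lower at ZT1. The count between ZT1 and ZT19 was 2225 with DESeq2, 1182 with limma-voom, 96 with total counts, 902 without ZT19 replicate 4 and 0 without any 1 of the ZT1 libraries. The 12-h pairs, ZT7 against ZT19 and ZT13 against ZT1, gave different log2 fold changes for 2 genes (0.0104%), Slc10a6 (difference -3.13, adjusted p = 0.00950 by edgeR) and Fkbp5 (-2.67, 0.0251), both on the glucocorticoid list. The rule for named genes did not cover these genes, and they were picked with their values known. None of the 11 genes called between the sides passed any of these 3 tests. Slc10a6 and Fkbp5 differed between the sides by 0.66 (adjusted p = 0.198 by edgeR) and 0.60 (0.213). Leaving out 1 library moved the count between the sides to between 2 and 21 genes. Of the 39 other settings, Dbp and Aldh3a1 were called in 36 each, Krt79 in 26, Ccdc80 in 25, Fam131b in 22, Sostdc1 in 20, Enpp2 and Tuba1c in 17 each, Top2a in 16, Ccnb1 in 14 and Col6a1 in 12.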

How the data were processed

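RNA of sorted dermal LECs was measured by RNA-seq in 20 libraries, with full-length cDNA amplified without molecular identifiers. Per the submitters' processing notes and the methods, the authors mapped reads to mm10 with STAR, counted them with HTSeq-count (Galaxy version 1.0.0) and deposited raw counts per gene symbol. Their own tests used DESeq2 (Galaxy version 2.11.40.6). Strand handling is not given in the sources used here.

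Here counts were analyzed in R 4.3.3 with edgeR 4.0.16 (TMM, filter by time point, 4 time-point means, quasi-likelihood F-test, Benjamini-Hochberg threshold 0.05), with the contrast of the mean of ZT7 and ZT13 against that of ZT19 and ZT1. Rows for reads on no gene or several genes were dropped. Normalized counts are relative to the geometric mean library, and log2 list levels used a pseudocount of 1. The model had no pairing by replicate number. Gene positions are from GENCODE M21. The common biological coefficient of variation was 1.00, which limits precision. Counts were simulated with each gene's own spread and no difference between the time points of a side, and 17699 genes were tested. Of genes changed 4-fold between dusk and dawn 55.6% were called, and of those changed 8-fold 63.5%, with 5 unchanged genes. With a spread setting of 0.04 for all genes, 100% of both were called.

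The comparison, gene lists and named genes were chosen with earlier results of these data known. Named are the clock genes, the called genes, and the called genes of every other list or the 2 with the smallest p. Clock kinases and 10 further genes are given by range or count. Alternatives were DESeq2 1.42.0, limma-voom with sample quality weights (limma 3.58.1), other scalings, filters, covariates and designs, thinning, a replicate block, and libraries or time points left out. Leaving out libraries with over 50% of reads on genes was added after seeing the data.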

Additional observations from a re-analysis of the deposited data

Results flagged for a closer look

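Of 28 groups of 5 libraries, each 1 of 7 called genes at a time point, 3 had 1 library far from the other 4 by Dixon's gap ratio on the log2(normalized count + 1) scale, where chance would give 1.4. For Fam131b the ratio was 0.735 for ZT7 replicate 2, with 4.57 normalized counts against 74.0 to 190 in the others. It was 0.878 for ZT13 replicate 5, with 4.75 against 50.9 to 69.4. For Enpp2 it was 0.803 for ZT1 replicate 4, with 594 against 1510 to 1896. Without ZT7 replicate 2 the comparison of the sides gave 21 genes and without ZT13 replicate 5 it gave 14.

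Reads that fell on more than 1 gene, which no comparison used, made up a median of 2.55% of genic reads, from 1.91% to 6.00% per library. The medians were 2.48% around dusk and 2.80% around dawn, with overlapping ranges.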

How the results depend on the processing

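No called gene changed direction in any of the 39 other settings. Of their 429 fits, 241 kept the call and 188 lost it. Dbp and Aldh3a1 were called in 36 each, and both were lost without the 6 libraries with over 50% of reads on genes and without the ZT19 libraries, Dbp also without those of ZT7 and Aldh3a1 without those of ZT13. The other 9 were called in 12 to 26. Of 1748 fits of the 45 genes with printed values that were not called, 70 passed, in 25 genes, with 17 of these fits from DESeq2, 16 from limma-voom and 14 without both dusk libraries with over 50% of reads on genes. As to depth, thinning every library to the smallest ended the calls of Fam131b, Enpp2 and Top2a (adjusted p = 0.0606 for each by edgeR). The share of reads on genes kept its direction when each library was left out, from -1.04 to -0.39.

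Counts between the sides, in all and higher around dusk and dawn, were 606, 489 and 117 with DESeq2, 362, 124 and 238 with limma-voom with quality weights, 4, 2 and 2 with RLE, 3, 2 and 1 with the upper quartile, 4, 2 and 2 with total counts, 21, 2 and 19 with robust spread, 5, 2 and 3 with the share of reads as a covariate, 20, 12 and 8 with marker scores as covariates, and 3, 1 and 2 with a 2-group design. Thinning gave 8, 1 and 7. They were 48, 2 and 46 without the ZT1 libraries, 16, 6 and 10 without ZT7, 2, 1 and 1 without ZT13, and 6, 1 and 5 without ZT19. Without both dusk libraries with over 50% of reads on genes they were 566, 400 and 166, and without all 6 such libraries 5, 0 and 5, where the lone ZT19 library was assumed to vary like the others. The 11 called genes were all among those of DESeq2, and 10 among those of limma-voom. With no overlap between sides, total counts gave 1 gene.

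Between ZT13 and ZT7, ZT1 and ZT19, and the 12-h pairs, counts were 88, 2225 and 257 with DESeq2, 8, 1182 and 16 with limma-voom, 24, 24 and 4 with RLE, 25, 11 and 4 with the upper quartile, 24, 96 and 2 with total counts, 24, 21 and 4 when thinned, 17, 12 and 5 with robust spread, 19, 0 and 0 with the share of reads, 0, 0 and 0 with marker scores, 1, 1845 and 2 without both dusk libraries and 2, 2 and 1 without the 6. The cause was not tested.

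With 1 library left out, the sides gave 2 to 21 genes (1 to 3 higher around dusk and 1 to 18 around dawn), ZT13 and ZT7 gave 2 to 36, ZT1 and ZT19 gave 0 to 902 and the 12-h pairs 1 to 5. The sides gave 2 without ZT1 replicate 5, ZT7 replicates 4 or 5 or ZT13 replicate 2, 3 without ZT1 replicate 3, ZT7 replicate 3 or ZT13 replicate 3, 4 without ZT1 replicate 2 or ZT19 replicate 5, 5 without ZT13 replicate 1, 20 without ZT19 replicate 3 and 21 without ZT7 replicate 2. The 902 came without ZT19 replicate 4, and 191 without ZT13 replicate 5.

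The replicate block left 2 genes between the sides, Dbp and Aldh3a1 (adjusted p = 0.0391 for both by edgeR), 1 in each direction, with 12, 0 and 1 in the other comparisons. Same-numbered libraries did not deviate together in every pair, and 5 of 20 correlated best with their own number.

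Among these 45 genes, 8 fits turned the sign, for Nfil3 (0.35) and Ier2 (0.083) without ZT7, Fosb (-0.18) without ZT13, Rbm3 (0.19), Maf (-0.20) and Esam (0.15) without ZT19, and Cry1 (0.0084) and Acan (0.96) without the 6 libraries. Among the 10 genes given only by range, the sign turned in 43 of 390 fits, in 9 genes.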
